A study of Mus musculus with 6 samples.

Results

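The genes described here are 7 transcription factors that drive epithelial-to-mesenchymal transition (EMT), namely Zeb1, Zeb2, Twist1, Twist2, Snai1, Snai2 and Prrx1, and 3 genes that act against EMT in epithelial cells, namely Esrp1, Esrp2 and Ovol1. They were picked by symbol, and they are 10 of the 41388 genes in the count files. All 10 were among the 12192 genes that passed the filter on low counts, which required a CPM value (the count scaled to the total of the library) above 1 in 3 or more samples. Twist1 passed through its 3 TIC samples alone, so that it could enter the test only by being higher there. The cells came from mammary tumors of 12-week-old mice of the strain FVB/N-TgN(MMTVPyVT)634Mul/J, called MMTV-PyMT, in which the MMTV long terminal repeat drives the polyoma middle T oncogene in mammary epithelium. Both groups carried this transgene, and the labels name no treatment. The 3 TIC samples held CD45- cells with both CD24 and CD90 on their surface, and the 3 others held the CD45- cells outside this gate, the non-CD24+CD90+ tumor cells, called control tumor cells below, although the series description names cells without either marker. Each sample pooled 4 cell sorts, with a total of 12 mice for the 3 samples of a group, so that the p-values below measure the spread between pools and not between single mice. Whether both groups came from the same mice is not given in the sources used here.

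EMT is a program in which epithelial cells loosen their junctions and take on features of motile mesenchymal cells, and in carcinomas it is linked to invasion and spread. The ZEB and SNAI proteins are zinc finger repressors that bind E-boxes in the promoters of junction genes such as Cdh1, the TWIST proteins are basic helix-loop-helix factors, and Prrx1 is a homeobox factor of mesenchymal tissue. Esrp1 and Esrp2 are RNA-binding proteins that keep the epithelial splice forms of genes such as Fgfr2 and Cd44, Ovol1 is a zinc finger repressor of epithelia, and in many cell systems these genes and the ZEB factors repress each other. The same transcription factors are also made by normal fibroblasts and other stromal cells.

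The promoters of 4 factors are shown, those of the pair of factors with the highest fold changes among promoters in the table used (Twist1 and Snai1), of Prrx1, whose groups did not overlap, and of Twist2, the paralog of Twist1. They are the 250 bases before the RefSeq start on GRCm38.p6, written 5′ to 3′ on the strand of the gene, with capitals for matches to any of 3 motifs. These were the E-box, spelled CAGGTG and read as CACCTG on the other strand, the box CCAAT, read as ATTGG on the other strand, and the TATA box, spelled TATAAA. The motifs do not share letters in these windows.
Twist1, chr12:33957421-33957670, plus strand: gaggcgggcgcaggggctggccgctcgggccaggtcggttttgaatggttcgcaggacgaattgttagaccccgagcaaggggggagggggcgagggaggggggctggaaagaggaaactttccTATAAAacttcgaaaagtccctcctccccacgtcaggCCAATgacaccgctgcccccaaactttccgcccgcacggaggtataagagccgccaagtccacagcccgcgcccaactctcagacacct
Snai1, chr2:167537945-167538194, plus strand: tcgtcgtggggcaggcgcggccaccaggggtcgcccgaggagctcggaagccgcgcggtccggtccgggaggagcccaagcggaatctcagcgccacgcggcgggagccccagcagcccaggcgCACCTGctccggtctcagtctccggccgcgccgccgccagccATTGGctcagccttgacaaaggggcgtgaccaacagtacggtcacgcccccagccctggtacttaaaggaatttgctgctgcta
Prrx1, chr1:163313651-163313900, minus strand: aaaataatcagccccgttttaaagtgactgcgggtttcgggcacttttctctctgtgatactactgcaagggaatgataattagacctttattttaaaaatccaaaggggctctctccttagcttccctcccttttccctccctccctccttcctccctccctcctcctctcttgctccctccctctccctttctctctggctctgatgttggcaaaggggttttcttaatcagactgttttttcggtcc
Twist2, chr1:91801211-91801460, plus strand: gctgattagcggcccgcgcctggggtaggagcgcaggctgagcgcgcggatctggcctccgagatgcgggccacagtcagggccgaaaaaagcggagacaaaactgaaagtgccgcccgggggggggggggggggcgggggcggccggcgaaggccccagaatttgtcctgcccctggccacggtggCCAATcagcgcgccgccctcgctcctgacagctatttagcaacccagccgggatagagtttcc
Counted from the start as base 0, Twist1 held the TATA box at -126 to -121 and the CCAAT box at -89 to -85. Snai1 held the E-box at -126 to -121 and the CCAAT box at -84 to -80, both on the other strand, Twist2 held the CCAAT box at -63 to -59, and Prrx1 held none of the motifs. The search covered both strands of the 300 bases from 250 before to 50 after each start, and of 32851 RefSeq promoters of that length 20.2% held the E-box, 37.4% the CCAAT box and 13.6% the TATA box. The GC content of these windows was 66.0% for Twist1, 70.0% for Snai1, 64.7% for Twist2 and 47.7% for Prrx1, beside a median of 52.7% over all promoters. Of the 10 genes, 5 had an entry in the promoter table, the fifth being Zeb2 with 4 starts. One start of Zeb2 held 2 CCAAT boxes and the others none of the motifs.

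Total counts per sample were 6781239 to 8450038 for control tumor cells and 8114933 to 9100552 for TICs, at which 3 counts equal 0.330 to 0.438 CPM. Single libraries had no count for some genes that the rest of their group put well above this limit. The limit covers counting error only, and the cause of such zeros was not tested. Where the rest of a group put a gene at 20 to 60 counts, zero counts were found for 19.7% to 25.1% of genes per library of control tumor cells and for 27.6% to 37.7% per TIC library. Among the sorting markers, Thy1 (CD90) had 75.9, 56.7 and 21.6 CPM in control tumor cells and 90.7, 207 and 70.3 CPM in TICs, and Cd24a had 402, 405 and 602 against 440, 315 and 356 CPM. Both overlapped between the groups. The gate as the paper defines it leaves cells with 1 marker in the comparison group, while the series description does not. The cause of the overlap was not tested. In bulk samples, fewer cells of a type and less RNA per cell cannot be told apart.

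Of the 7 EMT factors, Twist1 and Zeb1 rose in TICs and the other 5 did not pass the test. The test was edgeR's exactTest with Benjamini-Hochberg adjustment over all 12192 expressed genes and a threshold of 0.1, which called 1.55% of them, 1.36% as higher and 0.189% as lower in TICs. DESeq2, which called 2.52% of genes, also called Twist1 and Zeb1, and edgeR's quasi-likelihood test, which called 0.41%, called neither. The log2 fold change was above 0 for 6 of the 7 factors, with a median of 1.58, beside 49.7% of all expressed genes and a median of -0.0061. For 3 factors (Twist1, Zeb1 and Prrx1) the lowest TIC sample exceeded the highest control sample, as for 7.69% of expressed genes. For Twist1 the sign and the lack of overlap were fixed by the filter, which it passed through its 3 TIC samples alone. For Snai2 every TIC sample was below, as for 7.55% of expressed genes. In the plot of each gene by sample, Twist1 was near 0 in one group only, Zeb1, Zeb2 and Snai1 spread widely among TICs, and Snai2 was the factor with lower values in TICs. Summed fibroblast markers were also higher in TICs (1558 to 2856 against 934 to 973 CPM, given in full further on), and their part in the levels of these factors was not tested.

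**Figure D1:**
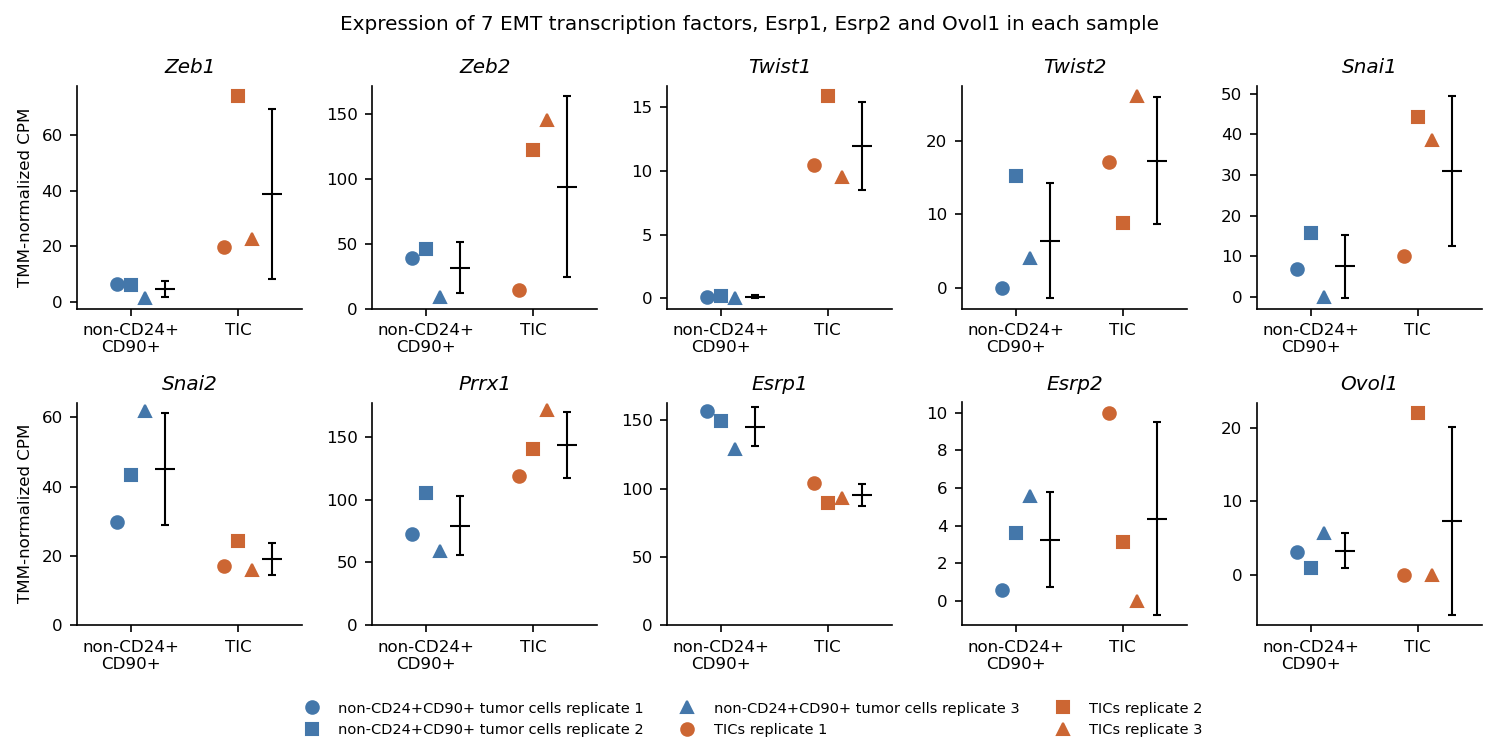
TMM-normalized CPM of the 10 genes in each of the 6 samples, with 1 panel for each gene and the vertical axis in CPM. Blue symbols are control (non-CD24+CD90+) tumor cells, orange symbols are TICs, the symbol shape gives the replicate number, and black bars are the mean ± SD (n = 3). Twist1 lies at 0 to 0.227 CPM in control tumor cells and at 9.50 to 15.9 CPM in TICs, and Snai2 and Esrp1 are the genes with every TIC sample below every other sample.

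Twist1 (ENSMUSG00000035799, GRCm38 chromosome 12, 33957671 to 33959829), an activator of mesenchymal genes, was nearly undetected outside the TIC gate. Its counts were 1, 2 and 0 in control tumor cells and 95, 136 and 72 in TICs, or 0.146, 0.227 and 0 against 10.4, 15.9 and 9.50 CPM. All TIC samples were close to each other and far from the other group. TICs exceeded control tumor cells by a log2 fold change of 6.39 (SE 1.67, 95% interval 3.11 to 9.66, adjusted p = 0.0922 from exactTest). Because the lower group held 3 counts in all, the summed counts of 303 against 3 were also set against each other, which gave a depth-adjusted ratio of 90.6 with a 95% counting interval of 30.7 to 442. That interval covers counting error only and leaves out the spread between samples. The call was lost without any 1 of the 6 samples (adjusted p = 0.112 to 0.412), in the quasi-likelihood test (adjusted p = 0.272), with library size alone as the scaling (adjusted p = 0.109) and without a filter on low counts (adjusted p = 0.198), while the log2 fold change stayed between 5.88 and 7.08. An exact permutation test of 3 samples against 3 cannot give a p below 0.1.

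Zeb1 (ENSMUSG00000024238, chromosome 18, 5591860 to 5775467), the classical repressor of Cdh1 and of the ESRP genes, had 6.57, 6.24 and 1.43 CPM in control tumor cells and 19.9, 73.8 and 22.6 CPM in TICs. The groups did not overlap, and TIC replicate 2 stood over 3 times above the other TIC samples. Zeb1 had a log2 fold change of 3.02 (SE 0.83, 95% interval 1.40 to 4.64, adjusted p = 0.0714 from exactTest). The call was lost in the quasi-likelihood test (adjusted p = 0.248), without a filter on low counts (adjusted p = 0.138), without TIC replicate 2 (adjusted p = 0.755, log2 fold change 2.16) and without replicate 1, 2 or 3 of control tumor cells (adjusted p = 0.191, 0.261 and 0.327). Its paralog Zeb2 (ENSMUSG00000026872, chromosome 2, 44983632 to 45117395), which shares its target sites, had 39.0, 46.3 and 9.01 CPM in control tumor cells and 14.6, 122 and 146 CPM in TICs. TIC replicate 1 lay inside the range of the other group, and the other TIC samples lay above it. Zeb2 had a log2 fold change of 1.58 (SE 0.69, adjusted p = 0.493 from exactTest), and without TIC replicate 1 it was 2.11 and passed the threshold (adjusted p = 0.0238). With a trended dispersion, which called 1.89% of genes, Zeb2 passed as well (adjusted p = 0.0592) and Twist1 did not (adjusted p = 0.215). The antisense gene Zeb2os overlaps Zeb2, and it had 57 counts in TIC replicate 1 and 0, 4, 11, 0 and 0 counts in the other samples. Whether reads of the pair were split by strand is not given in the sources used here.

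The SNAI paralogs, both E-box repressors of Cdh1, had fold changes of opposite sign. Snai1 (ENSMUSG00000042821, chromosome 2, 167538195 to 167542814) had 48, 138 and 0 counts in control tumor cells and 91, 380 and 293 counts in TICs, with means of 7.55 ± 7.84 and 31.0 ± 18.4 CPM (SD, n = 3). TIC replicates 2 and 3 were above every other sample and TIC replicate 1 lay inside the other group's range. Its log2 fold change of 2.03 (SE 1.14, 95% interval -0.21 to 4.27) was not distinguishable from the spread between samples (adjusted p = 0.820 from exactTest). Snai2 (ENSMUSG00000022676, chromosome 16, 14705852 to 14709385), which in the normal mammary gland belongs to basal cells, had 29.8, 43.3 and 61.9 CPM in control tumor cells and 16.9, 24.4 and 15.8 CPM in TICs. Every TIC sample was below every other sample. The log2 fold change of -1.24 (SE 0.57, 95% interval -2.36 to -0.12) had an unadjusted p of 0.0346 in exactTest and did not pass the adjustment (adjusted p = 0.542).

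Prrx1 (ENSMUSG00000026586, chromosome 1, 163245119 to 163313710) is a regulator of limb and craniofacial mesenchyme and of stromal cells. It had 73.0, 106 and 59.4 CPM in control tumor cells and 119, 141 and 172 CPM in TICs. The groups did not overlap, with a gap of 106 to 119 CPM between them. The log2 fold change of 0.86 (SE 0.35, 95% interval 0.18 to 1.53) had an unadjusted p of 0.0140 and an adjusted p of 0.352 in exactTest. Twist2 (ENSMUSG00000007805, chromosome 1, 91801461 to 91848028), the paralog of Twist1 in dermal and stromal mesenchyme, had 0, 15.2 and 4.01 CPM in control tumor cells and 17.1, 8.74 and 26.1 CPM in TICs. TIC replicate 2 lay inside the other group's range, unlike for Twist1. The log2 fold change of Twist2 was 1.43 (SE 1.32, 95% interval -1.16 to 4.02, adjusted p = 0.999 from exactTest). At an unadjusted p below 0.05, a level that 7.85% of expressed genes reached, 5 of the 10 genes passed, namely Zeb1, Zeb2, Twist1, Prrx1 and Snai2.

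Of the 3 antagonists, 0 passed in exactTest, the quasi-likelihood test or DESeq2 and 0 had an unadjusted p below 0.05 in exactTest, beside 7.85% of all expressed genes. Their values took 3 different shapes. Esrp1 (ENSMUSG00000040728, chromosome 4, 11331933 to 11386783), the more abundant of the epithelial splicing regulators, had 157, 149 and 129 CPM in control tumor cells and 104, 89.2 and 92.8 CPM in TICs. Every TIC sample was below every other sample, and the spread within each group was small (145 ± 14.3 against 95.4 ± 7.90 CPM, SD, n = 3). For Esrp1 the log2 fold change of -0.61 (SE 0.31, 95% interval -1.21 to 0.0020) had an unadjusted p of 0.0524 and an adjusted p of 0.642 in exactTest, and it stayed between -0.68 and -0.54 under all other settings tried. TICs therefore still held Esrp1 counts of 703 to 949 per sample, beside 904 to 1317 in the other group.

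Esrp2 and Ovol1 had few counts and large spreads. Esrp2 (ENSMUSG00000084128, chromosome 8, 106130319 to 106136974), the paralog of Esrp1, had 4, 32 and 39 counts in control tumor cells and 91, 27 and 0 counts in TICs, with means of 3.26 ± 2.52 and 4.38 ± 5.11 CPM (SD, n = 3). The TIC samples held both the highest and the lowest value of all 6. Its log2 fold change was 0.42 (SE 1.81, 95% interval -3.13 to 3.98, adjusted p = 1 from exactTest), and it turned to -1.03 without TIC replicate 1. Ovol1 (ENSMUSG00000024922, chromosome 19, 5549136 to 5560646) had 22, 9 and 40 counts in control tumor cells and 0, 189 and 0 counts in TICs, or 3.21, 1.02 and 5.72 against 0, 22.0 and 0 CPM. A single TIC sample, replicate 2, was above the other group, and the other TIC samples had no count, which by counting error alone allows up to 0.330 and 0.396 CPM. Its log2 fold change was 1.14 (SE 2.04, 95% interval -2.86 to 5.15, adjusted p = 1 from exactTest), and without TIC replicate 2 both remaining TIC libraries were at 0 counts. The intervals of both genes include a loss and a gain of several fold, so that no difference was detectable beyond the spread between samples. Esrp2 overlaps 1810019D21Rik and Nfatc3 on the other strand. Among the other splicing regulators examined, Srsf1 and Ptbp1, which are used by nearly all cells and also overlap genes on the other strand, had 0 to 5 and 2 to 45 counts. Both were singled out after their values were seen, and the part of such overlaps in the counts of Esrp2 was not tested.

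**Figure D2:**
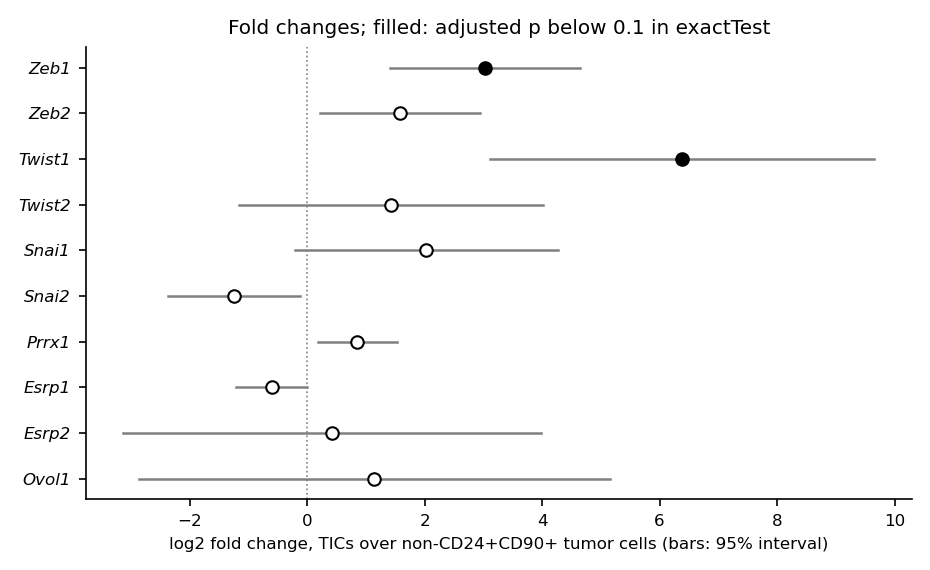
Log2 fold changes (TICs over non-CD24+CD90+ cells) of the 10 genes on the horizontal axis, with bars for the 95% interval. Filled symbols have an adjusted p below 0.1 in edgeR's exactTest. Zeb1 and Twist1 are filled at 3.02 and 6.39, and the bars of Esrp2 and Ovol1 reach from -3.13 to 3.98 and from -2.86 to 5.15.

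Levels were compared between genes only as CPM per kilobase of exon (the union of GENCODE M21 exons). In control tumor cells, Esrp1 (23.0) and Snai2 (22.3 CPM per kilobase) were the highest, followed by Prrx1 at 7.17, Snai1 at 4.66, Twist2 at 2.02, Zeb2 at 1.58, Ovol1 at 0.951, Esrp2 at 0.752, Zeb1 at 0.462 and Twist1 at 0.0763. The ranges of neighbours in this order overlapped except between Snai2 and Prrx1. In TICs the order was Snai1 at 19.1, Esrp1 at 15.1, Prrx1 at 13.0, Snai2 at 9.42, Twist1 at 7.33, Twist2 at 5.46, Zeb2 at 4.72, Zeb1 at 3.77, Ovol1 at 2.11 and Esrp2 at 1.01 CPM per kilobase. There the ranges of all neighbours overlapped. Esrp1 thus was among the highest of the 10 genes per length in both groups, and Twist1 moved from the last place to the middle.

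The question of whether a gain of the factors went with a loss of the antagonists was then asked sample by sample. In TIC replicate 1, 4 of 7 factors (Zeb1, Twist1, Twist2 and Prrx1) were above all samples of control tumor cells, and 2 of 3 antagonists (Esrp1 and Ovol1) were below them, while Esrp2 was above. In TIC replicate 2, 5 factors (Zeb1, Zeb2, Twist1, Snai1 and Prrx1) were above, Esrp1 was below and Ovol1 was above. In TIC replicate 3, 6 factors (every one but Snai2) were above and all 3 antagonists were below. Snai2 was below in each of the 3. The share of all expressed genes above or below every control sample in a single TIC sample was not computed. These counts therefore have no baseline and only describe the order of the samples. The pattern of more factors and less of every antagonist was thus complete in 1 TIC sample, and Esrp1 was the antagonist that was lower in all of them. Esrp2 and Ovol1 in TIC replicate 3, and Ovol1 in TIC replicate 1, were below by having 0 counts. Of genes put at 20 to 60 counts by the rest of the group, 37.7% had no count in TIC replicate 3. In TIC replicate 1 it was 27.6%. Esrp2 in TIC replicate 3 fell in this range of counts. Ovol1 was put above it in both samples, through TIC replicate 2 alone, so that these shares do not cover the zeros of Ovol1. Whether these zeros reflect lower expression was not tested.

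The mean log2 CPM of the 7 factors was 2.67, 3.90 and 1.99 in control tumor cells and 4.30, 5.37 and 5.20 in TICs, so that the groups did not overlap and differed by 2.11. The mean log2 CPM of the 3 antagonists was 2.94, 3.18 and 4.05 in control tumor cells and 2.69, 4.24 and 0.848 in TICs. TIC replicate 2 held the highest antagonist value of all samples together with the highest factor value, and TIC replicate 3 held the lowest antagonist value with nearly as high a factor value. The antagonist difference of -0.80 was smaller than the SD among TICs (1.70), and it came to 0.078 without TIC replicate 3 and to -1.38 with a prior count of 0.5 in place of 2. Summed CPM, in which Esrp1 outweighs the others, gave 161, 154 and 141 for the antagonists in control tumor cells and 114, 114 and 92.8 in TICs, and 155, 233 and 136 against 208, 430 and 430 for the factors. On that scale the antagonist groups did not overlap and the factor groups did. Because the genes were picked with results of these data known, these scores are given without a p.

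**Figure D3:**
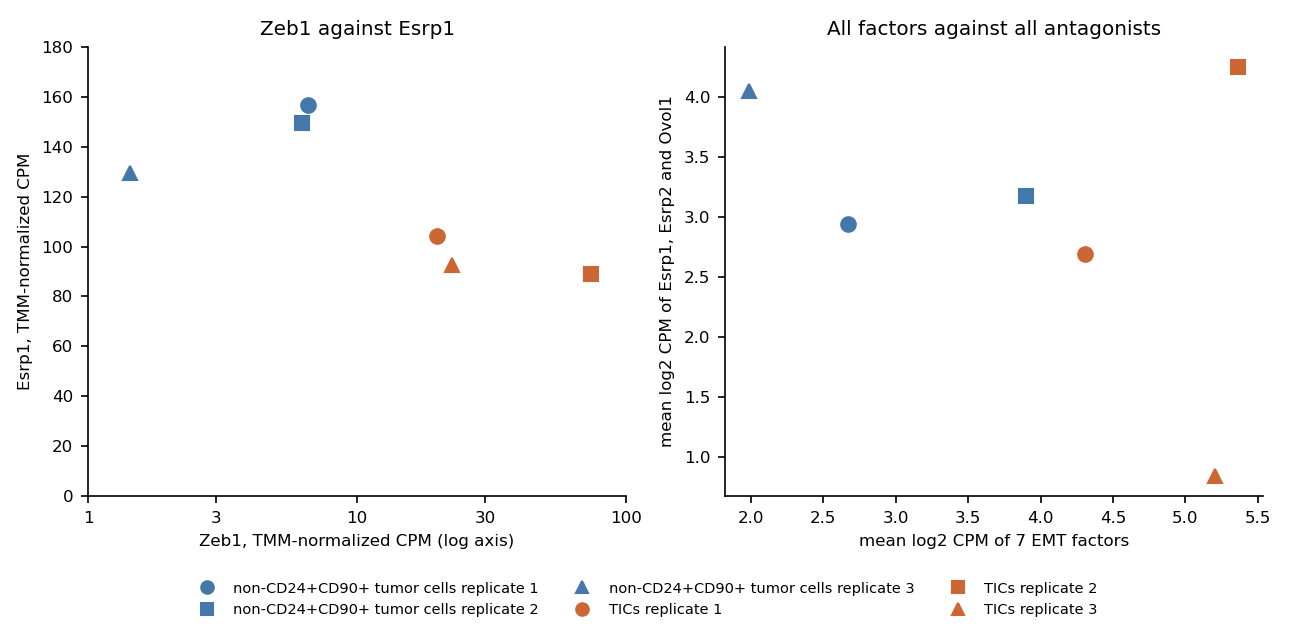
Left, Esrp1 (vertical axis, CPM) against Zeb1 (horizontal log axis, CPM) in each of the 6 samples. Right, mean log2 CPM of Esrp1, Esrp2 and Ovol1 against mean log2 CPM of the 7 factors. Blue symbols are control (non-CD24+CD90+) tumor cells, orange symbols are TICs and shapes give the replicate number. On the left the TICs lie at 19.9 to 73.8 CPM of Zeb1 and 89.2 to 104 CPM of Esrp1, apart from the other samples, and on the right TIC replicates 2 and 3 share high factor levels but lie at 4.24 and 0.848 for the antagonists.

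Over all 21 pairs of a factor with an antagonist, 6 had a higher factor and a lower antagonist by fitted log2 fold change, 13 had fold changes of the same sign and 2 had a lower factor and a higher antagonist. The 6 opposite pairs were the 6 factors with positive values, each with Esrp1. In 3 of the 21 pairs, Zeb1, Twist1 and Prrx1 with Esrp1, every TIC sample was above for the factor and below for the antagonist. Snai2 and Esrp1 did not overlap between the groups either, but both were lower in TICs. For Twist1 the lack of overlap was fixed by the filter on low counts. All of the 13 same-sign pairs but Snai2 with Esrp1 rest on the positive values of Esrp2 and Ovol1, and these turned below 0 without TIC replicate 1 for Esrp2 and without TIC replicate 2 for Ovol1. Within the TICs the order of Zeb1 (19.9, 73.8 and 22.6 CPM) was the reverse of that of Esrp1 (104, 89.2 and 92.8 CPM), and within control tumor cells both genes had the same order (6.57, 6.24 and 1.43 against 157, 149 and 129 CPM).

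The targets of these regulators were then examined in lists of genes. Of 12 mesenchymal targets, all expressed, 4 rose in TICs (Fn1, Vim, Tnc and Mmp2), beside 1.36% of all expressed genes, none fell, and the median log2 fold change was 1.26. Fn1, the matrix protein fibronectin, had 620, 1023 and 706 CPM in control tumor cells and 2186, 2752 and 1759 CPM in TICs, a log2 fold change of 1.51 (SE 0.30, adjusted p = 0.00066 from exactTest). Vim, the intermediate filament of mesenchymal cells, had 162, 217 and 130 CPM against 334, 461 and 367 CPM (log2 fold change 1.19). Tnc, a matrix glycoprotein of invasive fronts, had 37.2, 117 and 89.0 CPM against 214, 316 and 257 CPM (log2 fold change 1.69). In 8 of the 12 genes every TIC sample was above every other sample, as for 7.69% of expressed genes. The quasi-likelihood test called Fn1 alone, and Vim was lost without replicate 1 or 3 of control tumor cells or TIC replicate 2 (adjusted p = 0.180, 0.273 and 0.180). Cdh2 (N-cadherin), the counterpart of Cdh1 in the cadherin switch, had 9.20 ± 3.63 CPM in control tumor cells and 7.56 ± 1.45 CPM in TICs (SD, n = 3).

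Among 17 epithelial junction and polarity genes, 0 were called by exactTest or the quasi-likelihood test, 1 (Cdh1) by DESeq2, and 1 (Cdh1) had an unadjusted p below 0.05 in exactTest. That level was reached by 7.85% of all expressed genes. The median log2 fold change was -0.33, and 3 of the 17 had a value above 0. Cdh1, which encodes E-cadherin and is the textbook target of ZEB and SNAI factors, had 862, 820 and 663 CPM in control tumor cells and 470, 454 and 512 CPM in TICs. The groups did not overlap, and the log2 fold change was -0.71 (SE 0.27, adjusted p = 0.297 from exactTest and 0.0262 from DESeq2). TICs thus still held Cdh1 at 479 ± 30.1 CPM, beside 782 ± 105 CPM (SD, n = 3). Epcam also had every TIC sample below every other sample. The desmosome protein Pkp3 and the small GTPase Rab25 had log2 fold changes of -0.46 and -0.67 (adjusted p = 0.871 and 0.941 from exactTest). Of the 12 other epithelial guardian factors, 10 were expressed, 0 were called by exactTest, the quasi-likelihood test or DESeq2, 2 (Tfap2c among them) had an unadjusted p below 0.05 in exactTest, and 1 had a log2 fold change above 0, with a median of -0.64. Tfap2c, a factor of luminal cells, had 372, 326 and 378 CPM against 257, 207 and 124 CPM (log2 fold change -0.87, adjusted p = 0.251 from exactTest). Elf5, a factor of the alveolar lineage, had a log2 fold change of -0.72 (adjusted p = 0.697 from exactTest).

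Factors and partners outside the 10 genes showed few differences. Of 14 other EMT-linked transcription factors, 12 were expressed, 0 were called by exactTest or the quasi-likelihood test and 2 (Msx1 and Tcf4) by DESeq2. In exactTest 3 of them had an unadjusted p below 0.05 (Msx1 and Tcf4 higher, Foxc1 lower), beside 7.85% of all expressed genes, and the median log2 fold change was -0.0047. Msx1, a homeobox factor, had 40.0, 27.9 and 45.1 CPM against 66.1, 70.5 and 181 CPM (log2 fold change 1.49, adjusted p = 0.102 from exactTest and 0.0789 from DESeq2). Tcf4, a basic helix-loop-helix partner of TWIST, had 442, 352 and 402 CPM against 412, 1044 and 1168 CPM (log2 fold change 1.13, adjusted p = 0.115 from exactTest and 0.0121 from DESeq2). TIC replicate 1 lay inside the other group's range for Tcf4, as it did for Zeb2 and Snai1. Foxc1, a forkhead factor, had 113, 114 and 152 CPM against 77.0, 56.2 and 53.7 CPM (log2 fold change -1.02, adjusted p = 0.172 from exactTest). Of 14 co-repressors and partners through which SNAI, ZEB and TWIST act, all were expressed, and 0 were called by exactTest, the quasi-likelihood test or DESeq2 or had an unadjusted p below 0.05 in exactTest, with a median log2 fold change of 0.013. The 3 with the smallest p were the histone demethylase Kdm1a at 0.96, the deacetylase Hdac2 at 0.98 and the remodeler Smarca4 at -0.39 (adjusted p = 0.743, 0.875 and 0.933 from exactTest).

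Of 13 other splicing regulators, 11 were expressed and 1, Rbm47, fell in TICs. Rbm47, an RNA-binding protein of epithelia, had 471, 540 and 461 CPM in control tumor cells and 234, 278 and 282 CPM in TICs, a log2 fold change of -0.89 (SE 0.28, adjusted p = 0.0946 from exactTest). The groups did not overlap, but the call was lost without any 1 of the 6 samples (adjusted p = 0.150 to 0.520). It was also lost in the quasi-likelihood test (adjusted p = 0.169), and in exactTest with RLE scaling (adjusted p = 0.129) or without a filter (adjusted p = 0.245). Ptbp2, a repressor of neuronal exons, and Rbfox2, a regulator of mesenchymal splice forms, had log2 fold changes of 1.27 and -0.42 (adjusted p = 0.984 and 0.985). The median over the list was -0.092. Of 12 genes known to be spliced by ESRP, 1 (Slk) was called, 4 (Cd44, Nf2, Fgfr2 and Arhgef11) had every TIC sample below every other sample, beside 7.55% of expressed genes, and the median log2 fold change was -0.21. Slk, a kinase that turns over adhesions, rose from 53.0, 71.7 and 45.9 CPM to 135, 116 and 127 CPM (log2 fold change 1.15, adjusted p = 0.0852 from exactTest), and this call was lost as well without any 1 sample (adjusted p = 0.139 to 0.466). The quasi-likelihood test lost it too (adjusted p = 0.212). So did exactTest with library size alone (adjusted p = 0.134), without a filter (adjusted p = 0.174) or with a trended dispersion (adjusted p = 0.166). Fgfr2, whose epithelial exon depends on ESRP, had 36.3, 71.9 and 50.9 CPM against 16.2, 17.8 and 17.8 CPM (log2 fold change -1.62, adjusted p = 0.165 from exactTest). The gene model used for Fgfr2 overlaps 43 other genes on both strands, and the part of these overlaps in its counts was not tested. Arhgef11, a guanine nucleotide exchange factor, had 16.2, 11.3 and 8.87 CPM against 0.879, 0 and 1.45 CPM (log2 fold change -3.94, adjusted p = 0.487). Counts per gene do not show splice forms, so that ESRP activity was not analysed here. In all, 6 of the 88 expressed genes of these 7 lists were called, 5 higher and 1 lower, or 6.82%, beside 1.55% of all expressed genes.

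**Figure D4:**
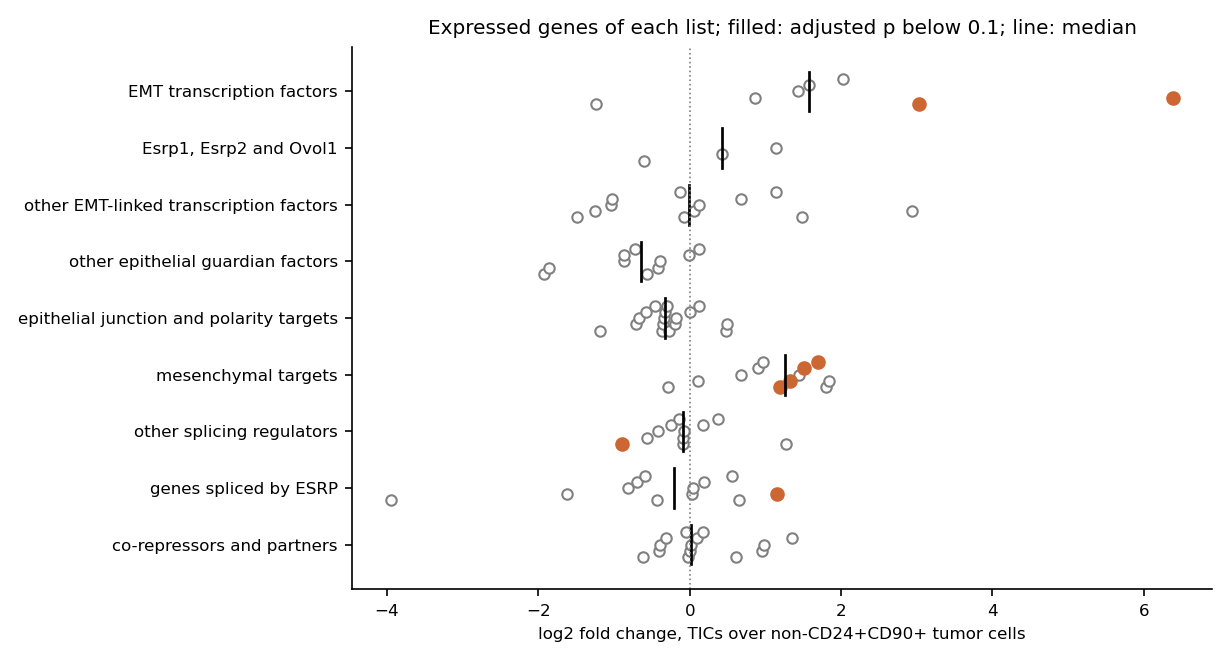
Log2 fold changes (horizontal axis, TICs over non-CD24+CD90+ cells) of the expressed genes in each list, 1 symbol for each gene and a vertical line at the median of the list. Filled symbols have an adjusted p below 0.1 in exactTest. The mesenchymal targets have 4 filled symbols and a median of 1.26, and the junction genes have none and a median of -0.33.

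Of the summed markers of cell types that such a sort could hold, some separated the groups and others overlapped between them. The summed CPM of 8 fibroblast markers was 942, 973 and 934 in control tumor cells and 1558, 2854 and 2856 in TICs. Of them 3 (Dcn, Pi16 and Dpt) were called higher by exactTest, which called 1.36% of all expressed genes higher and 0.189% lower. The 9 markers of pericytes or smooth muscle summed to 482, 537 and 654 against 844, 1222 and 1360 CPM, with 1 called (Rgs5). Rgs5 alone held 243, 243 and 243 CPM against 528, 667 and 800 CPM of these sums. A log2 fold change above 0 was found for 8 of the 9 markers, beside 49.7% of all expressed genes, but Acta2 and Myh11 were at -0.011 and 0.071. The 7 endothelial markers summed to 150, 169 and 153 against 194, 301 and 677 CPM, with 0 called by exactTest, the quasi-likelihood test or DESeq2 and 5 at an unadjusted p below 0.05 in exactTest. That level was reached by 7.85% of all expressed genes, and 0 of the endothelial markers had every TIC sample above every other sample. TIC replicate 1 was the lowest TIC sample in all 3 sums and for Zeb1, Zeb2, Snai1 and Prrx1, while Twist1 and Snai2 were lowest in TIC replicate 3 and Twist2 in TIC replicate 2. The 8 luminal markers summed to 5966, 6009 and 5660 against 4268, 3855 and 3639 CPM, with Prom1 called lower, and include Cdh1, Epcam and Elf5 from the lists above. The 7 basal or myoepithelial markers summed to 594, 722 and 1253 against 739, 625 and 649 CPM, with 0 called by exactTest, the quasi-likelihood test or DESeq2 and 1 (Krt14) at an unadjusted p below 0.05 in exactTest, beside 7.85% of all expressed genes. Snai2 and this basal sum were both highest in replicate 3 of control tumor cells, but among TICs Snai2 was highest in replicate 2, where the basal sum was lowest.

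The remaining sums were smaller, or 1 gene made up nearly all of the sum. The 8 leukocyte markers summed to 16.7 to 35.6 CPM against 32.1 to 90.1 CPM. Of the 3 expressed markers, 1 (Lyz2) had a log2 fold change above 0 and was called higher. The median of the 3 was -0.31, the value of Cd68. Adgre1 and Cd3e were at 0 counts in every sample, and Ptprc in every sample but replicate 1 of control tumor cells. The 5 adipocyte markers summed to 56.5 to 137 CPM against 192 to 1225 CPM, nearly all of it Fabp4, which was called, while Adipoq, Plin1 and Plin4 were at 0 counts. The part of these cell types in the levels of Twist1, Zeb1 and the mesenchymal targets was not tested.

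**Figure D5:**
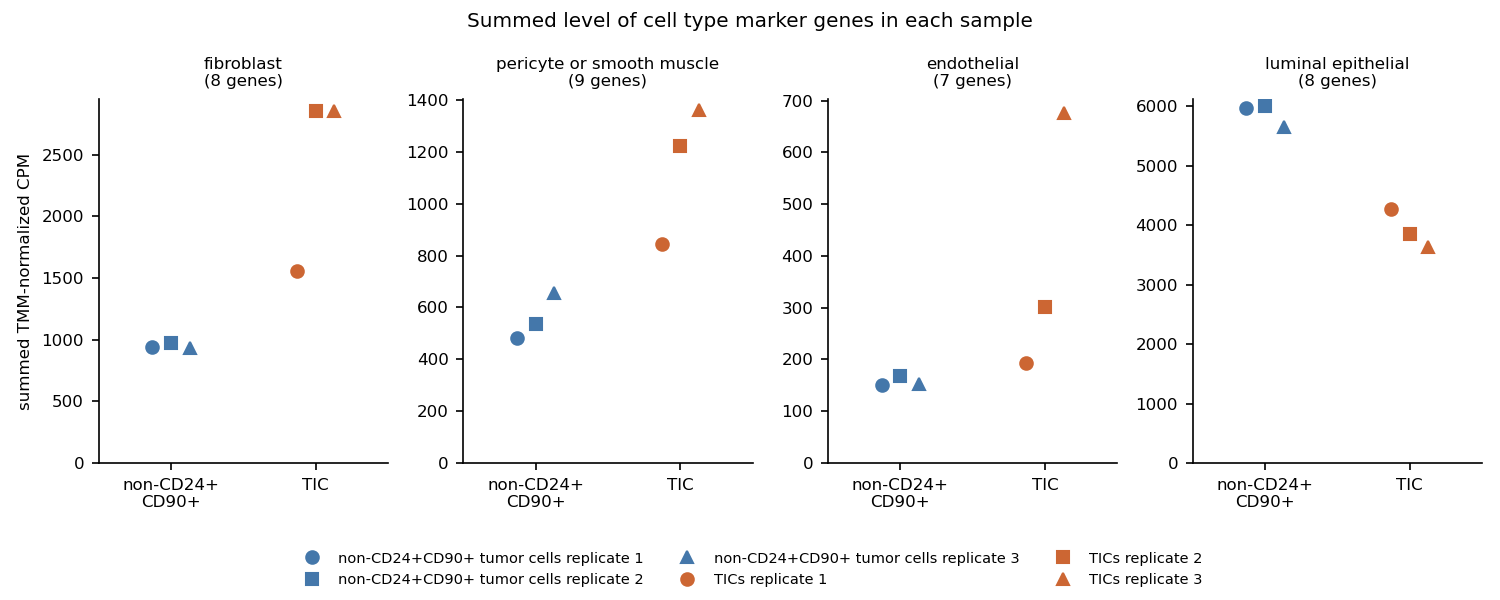
Summed TMM-normalized CPM (vertical axis, from 0) of fibroblast, pericyte or smooth muscle, endothelial and luminal epithelial markers in each sample. Blue symbols are control (non-CD24+CD90+) tumor cells, orange symbols are TICs and shapes give the replicate number. The fibroblast sums lie at 934 to 973 CPM in blue and 1558 to 2856 CPM in orange, and the luminal sums at 5660 to 6009 and 3639 to 4268 CPM.

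The genes whose log2 CPM followed Twist1, Zeb1 and Esrp1 most closely over the 6 samples were named as a description, among genes with a mean above 10 CPM. For Twist1 they were Col1a2 (Pearson r = 0.996), a chain of type I collagen, Il34 (r = 0.992), a ligand of the CSF1 receptor, and Fkbp9 (r = 0.990). Col1a2 had 662 ± 34.1 CPM in control tumor cells and 2666 ± 241 CPM in TICs, and Il34 had 8.01 ± 1.99 against 39.9 ± 4.04 CPM (SD, n = 3). For Zeb1 they were Golgb1 (r = 0.992), a Golgi protein, Ip6k1 (r = 0.989) and Zfp618 (r = 0.984), and for Esrp1 they were Farsb (r = 0.993), Krt18 (r = 0.991), a keratin of luminal cells, and Rpa1 (r = 0.980). Krt18 had 2657 ± 161 CPM in control tumor cells and 1645 ± 153 CPM in TICs. With 6 points that share their 2 groups, many genes reach such values.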

How the data were processed

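The authors trimmed the reads with Trimmomatic (version 0.32), aligned them to GRCm38 with STAR (version 2.4.0), kept uniquely mapped reads with SAMtools (version 1.1) and counted them per Ensembl gene with HTSeq, and they deposited these raw counts without normalization, 1 table for each of 6 samples. The annotation release and the strand setting are not given in the sources used here, so that overlapping genes can have lost or shared reads, and close paralogs can be undercounted. Samples were grouped by their labels, and replicate numbers follow the sample order and were not used to pair samples. Whether the groups share mice or sorts is not given in the sources used here.

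Genes above 1 CPM in 3 or more samples entered the test, and were normalized by TMM in edgeR (version 4.0.16, R version 4.3.3), and compared with exactTest, two-sided, after the study's methods, with tagwise dispersions (common dispersion 0.678) and Benjamini-Hochberg adjustment at 0.1. The study's own CPM threshold is not given. SEs came from the negative binomial fit with these dispersions. Scores used log2 CPM with a prior count of 2. Symbols, coordinates and exon lengths came from GENCODE M21, promoters from RefSeq. Symbols were found for 40254 of 41388 genes, and the rest held 0.171% of counts. Scripts were tested on simulated data. The genes, lists and tests were chosen with earlier results of these data known. Genes named outside the 10 are the 3 with the smallest p in each list, Cdh1 and Vim, the most abundant or called markers, the sorting markers, the 3 most correlated with Twist1, Zeb1 and Esrp1, and genes whose groups did not overlap or whose counts bear on an overlap, the last 2 kinds chosen after their values were seen. Some genes and 1 marker list that this rule covers are not reported here. Alternatives were the quasi-likelihood test, DESeq2 (version 1.42.0), RLE or library size scaling, other filters, trended dispersions, a threshold of 0.05, a prior count of 0.5, summed CPM, and each sample left out in turn. The counts at an unadjusted p below 0.05 and the scores without single samples were added after seeing the data.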

Additional observations from a re-analysis of the deposited data

How the results depend on the processing

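The number of the 10 genes called, 2 by exactTest, was 2 with DESeq2, RLE scaling, filterByExpr and trended dispersions (there Zeb1 and Zeb2), 1 with library size alone (Zeb1), 5 at an unadjusted p below 0.05, and 0 with the quasi-likelihood test, without a filter and at an adjusted p below 0.05. With 1 sample left out it was 0 to 2, namely Zeb1 and Zeb2 without TIC replicate 1, Zeb1 without TIC replicate 3 and 0 otherwise. Of the 88 expressed genes of the 7 other lists, 6 were called by exactTest, 18 at an unadjusted p below 0.05, 10 by DESeq2, 1 by the quasi-likelihood test, and 2 to 8 with 1 sample left out. An unadjusted p below 0.05 in exactTest was reached by 7.85% of all expressed genes. The difference in mean log2 CPM of the factors (2.11) was 0.99 on summed CPM and 1.67 to 2.63 with 1 sample left out. That of the antagonists (-0.80) was -1.38 with a prior count of 0.5 and -1.62 to 0.078 with 1 sample left out, the highest being without TIC replicate 3. Among 416 fits of 32 single genes under the alternatives, 359 kept their direction and side of the threshold, 40 lost and 14 gained a call, and 3 changed sign. These were Esrp2 without control replicate 1 (-0.055) and without TIC replicate 1 (-1.03), and Ovol1 without TIC replicate 2 (-7.71, with both remaining TIC libraries at 0 counts, so that its size depends on the prior count). With other samples left out Esrp2 reached 1.05 and Ovol1 1.79. The cause of these changes was not tested, beyond fewer samples or more genes tested. The quasi-likelihood test called fewer genes in all (0.41%) than DESeq2 (2.52%). No paired analysis was possible because the labels give no replicate numbers, so that mice or sorts shared between the groups could not be modelled. Depth limits the low group of Twist1, which held 3 counts in all.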
